A study of Mus musculus with 10 samples.

Results

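H4K8ac, histone H4 acetylated at lysine 8, was compared between spermatocytes and round spermatids of the mouse by setting side by side the islands, that is, stretches of the genome with more immunoprecipitated than input reads, that were called for it in each stage. All islands of the H4K8ac list of each stage on chromosomes 1 to 19 were taken, 35370 in spermatocytes and 27526 in round spermatids. These 62896 islands were part of 301484 islands over 8 lists, 1 list for each of 4 marks (H4K5ac, H4K5bu, H4K8ac and H4K8bu, where ac is acetylation and bu butyrylation) in each of 2 stages.

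Both groups were cells fractionated from testis of mice of the strain Oncins France 1, with no allele or treatment named in the labels. The spermatocyte group was 1 H4K8ac library with 1 input library of the same stage, and the round spermatid group likewise. ChIP was done on mononucleosomes, and the input was nucleosomal DNA taken before immunoprecipitation. The age and number of the animals and the purity of the fractions are not given in the sources used here. Islands were not assigned to genes, so the 2 cell types were not checked against marker genes. Since each stage had 1 library, no difference could be set against a spread between replicates, and no test was made. The 95% intervals given in parentheses after a fold are for the counting error of reads alone. Those after a share or a median treat islands as independent, which neighbouring islands need not be.

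Acetylation of a lysine removes its positive charge, and acetylated H4 tails are a usual feature of active promoters and enhancers. In male germ cells, spermatocytes pass through meiosis and round spermatids are the haploid cells that follow it. Histone H4 becomes broadly acetylated later, as spermatids elongate and histones give way to transition proteins and protamines, and the testis protein Brdt binds H4 acetylated at both lysine 5 and lysine 8 through a bromodomain. Butyrylation puts a longer acyl group on the same lysines.

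Round spermatids had fewer and wider H4K8ac islands than spermatocytes, over nearly the same length of the genome. Islands covered 115.556 Mb in spermatocytes and 114.282 Mb in round spermatids, a ratio of 0.989, while the ratio of their numbers was 0.778. The median width was 2600 bp in spermatocytes and 3200 bp in round spermatids. Islands wider than 8 kb numbered 1320 in spermatocytes (3.73%) and 2623 in round spermatids (9.53%), where they held 26.5% of the covered bases against 13.2%. At the other end, 2002 spermatocyte islands (5.66%) and 602 round spermatid islands (2.19%) were at most 1 kb wide.

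The islands held 5524237 ChIP and 1696901 input reads in spermatocytes and 4665744 ChIP and 2145305 input reads in round spermatids. The fold, the ratio of ChIP to input reads scaled by 1 constant per list for library size, had a median of 4.12 in spermatocytes and 3.10 in round spermatids. It also spread less in round spermatids, from 2.06 to 4.53 between the 10th and 90th percentiles of islands, against 2.26 to 7.54 in spermatocytes. In raw reads, both counts went toward the lower fold of round spermatids. The median ChIP density was lower there (37.9 against 45.7 reads per kb), and the median input density was higher (17.4 against 14.1 reads per kb). These densities are raw reads of libraries whose sizes the sources used here do not give. The constant in the fold was larger in round spermatids (1.42 against 1.24), which goes the other way. How much of the lower fold lies in either count was not tested.

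Most islands of each full list were found in both stages, and the share was larger in round spermatids. Of spermatocyte islands, 19356 or 54.7% (54.2 to 55.2) shared at least 1 bp with a round spermatid island, and 16014 (45.3%) shared none. Of round spermatid islands, 18885 or 68.6% (68.1 to 69.2) shared bases with a spermatocyte island, and 8641 (31.4%) shared none. Shared bases came to 59.6% of the bases covered in spermatocytes and 60.3% of those covered in round spermatids. The higher share in round spermatids went with its shorter list. With the spermatocyte list shortened to the same 27526 islands by fold, 54.9% of spermatocyte and 55.1% of round spermatid islands were shared. Most shared islands stand 1 against 1, so the lists share like numbers and near-equal shares at equal lengths are built in. When each list was cut to its stronger 50% by fold before the overlap, 46.6% of spermatocyte and 60.1% of round spermatid islands were shared. An island whose partner was cut counts there as not shared. These are thus not the shares of strong islands in the full lists, which are given by fold class below.

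Most overlaps were broad. At least 50% of the island was covered by the other stage in 93.2% of shared spermatocyte islands and 90.6% of shared round spermatid islands. Few one-stage islands were near misses, since 1.52% of spermatocyte-only and 3.24% of round spermatid-only islands lay within 1 kb of an island of the other stage. Within 20 kb the shares were 40.2% and 44.5%.

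One-stage islands were small. Spermatocyte-only islands had a median width of 1800 bp, 80 ChIP and 28 input reads and a fold of 3.75, against 3600 bp, 179 and 48 reads and 4.64 for shared ones. Round spermatid-only islands had a median width of 2400 bp, 76 ChIP and 45 input reads and a fold of 2.49, against 3800 bp, 152 and 65 reads and 3.43. The one-stage islands held 27.1% of the ChIP reads of the spermatocyte list and 17.6% of those of the round spermatid list. The islands missing in the other stage were thus the smaller ones in both lists, and the weaker ones by median fold.

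Width went with sharing in both stages, but small islands differed. Islands of at most 1 kb were shared in 10.4% of cases in spermatocytes (9.13 to 11.9) and in 55.2% in round spermatids (51.1 to 59.2). From 1.2 to 2 kb the shares were 24.2% and 48.5%. From 2.2 to 4 kb they met, at 60.8% and 60.9%, and above 8 kb they were 98.7% and 98.5%.

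Fold went with sharing in a different way in each stage. In round spermatids the shared percent was higher in each successive fold class, the list being cut into 5 equal parts, at 35.7, 53.5, 73.6, 87.4 and 93.0. In spermatocytes it was 54.6% in the lowest class, 42.6% and 42.5% in the next ones, and 60.2% and 73.8% in the upper ones. The dip was also seen among spermatocyte islands of 2.2 to 4 kb, with 56.5, 49.2, 44.2, 66.3 and 87.8% shared, so it was present at like widths.

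**Figure D1:**
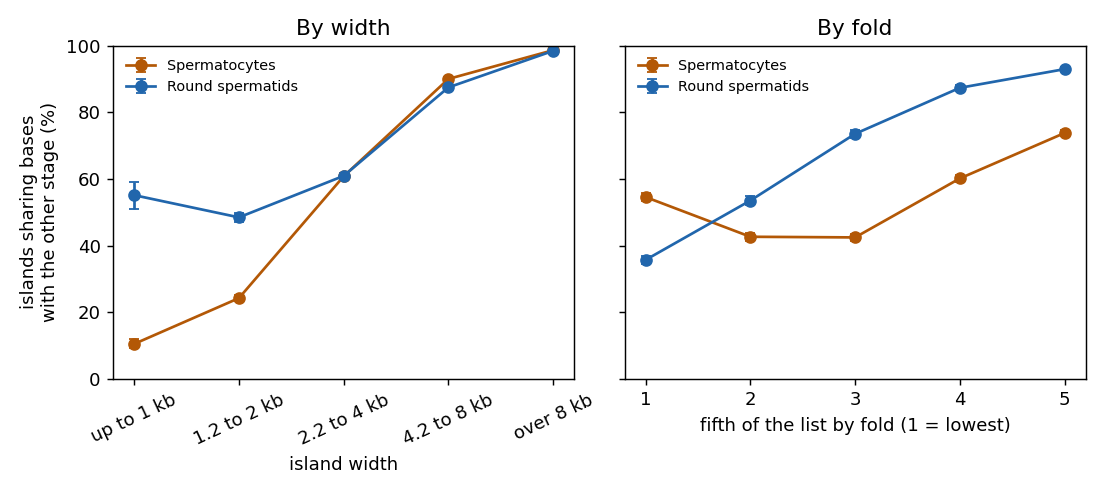
Percent of H4K8ac islands that share bases with an island of the other stage, by island width (left) and by fold over input in 5 equal classes (right), for spermatocytes and round spermatids. Points are shares of the 1 list per stage and bars are exact 95% binomial intervals. Round spermatid islands run from 35.7% to 93.0% over the fold classes, while spermatocyte islands are lowest in the middle, at 42.5%.

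The folds of shared spermatocyte islands formed 2 peaks, and those of shared round spermatid islands formed 1. Counted in steps of 0.2 on the log2 scale, 1576 shared spermatocyte islands had a log2 fold from 1.4 to 1.6, 1316 from 1.8 to 2.0 and 2163 from 2.4 to 2.6. Spermatocyte-only islands had a single peak at the dip, with 2127 islands from 1.8 to 2.0. In round spermatids the shared islands peaked at 1.8 to 2.0 (3938 islands) and the one-stage islands at 1.2 to 1.4 (1907 islands).

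The dip of the shared spermatocyte islands was lower than both peaks on 17 of 19 chromosomes, the exceptions being chromosomes 5 and 8. It was present among shared islands of 2.2 to 4 kb (710, 521 and 929 islands at the lower peak, the dip and the upper peak) and over 4 kb (581, 519 and 1095). Among those with at least 100 ChIP reads no second peak was found. In the same stage, shared islands of H4K5ac and H4K8bu also had 2 peaks and those of H4K5bu had 1, and in round spermatids every mark had 1. The lists of a stage share their input reads, so these are not independent of each other. This pattern was noticed in the data and is a description.

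**Figure D2:**
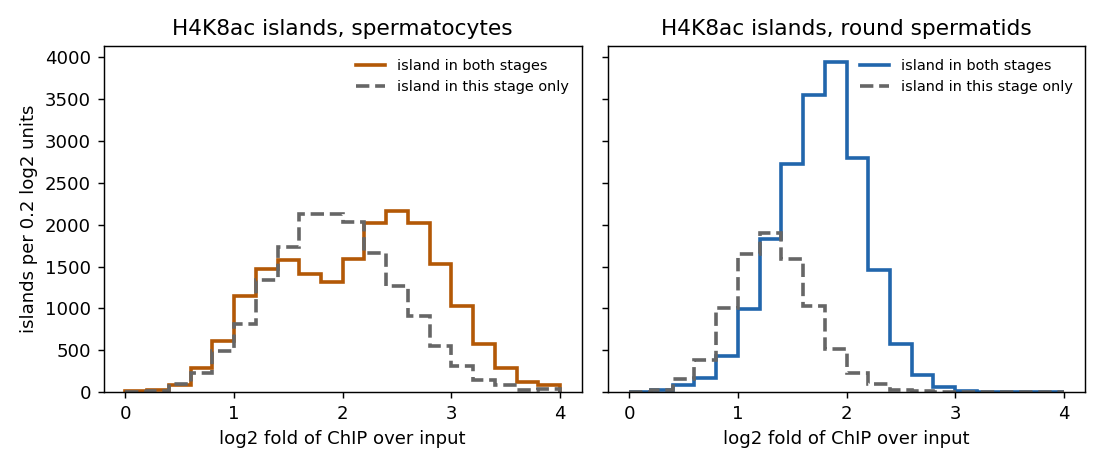
Number of H4K8ac islands per step of 0.2 in log2 fold of ChIP over input, in spermatocytes (left) and round spermatids (right), for islands found in both stages (solid) and in that stage only (dashed). Shared spermatocyte islands have 2 peaks with a dip of 1316 islands between them, where the spermatocyte-only islands are most numerous.

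Shared islands joined into 18190 loci, and at most of them 1 island stood against 1. The one-to-one pairs numbered 16597 (91.2%). At 945 loci (5.20%, 4.88 to 5.53) several spermatocyte islands lay under 1 round spermatid island, here called merged, and at 525 loci (2.89%, 2.65 to 3.14) 1 spermatocyte island met several round spermatid islands, here called split. The other 123 loci (0.676%) had several of each. With lists of the same length the shares were close, at 3.22% merged (2.94 to 3.52) and 3.42% split (3.13 to 3.72). Among the stronger 50% of islands by fold they were 2.24% (1.93 to 2.59) and 2.51% (2.18 to 2.88). The order of the values turned in both settings, but the intervals overlapped.

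Merged and split loci differed in fold. The merged loci had a summed width of 7600 bp in spermatocytes and 10200 bp in round spermatids (medians) and folds of 3.83 and 3.62. The split loci had widths of 7000 and 6600 bp and folds of 5.11 and 3.49. The spaces closed or opened were short, with a median of 1000 bp between the spermatocyte islands of merged loci and 800 bp between the round spermatid islands of split loci, the latter being the smallest gap in either list. Of spermatocyte gaps of 800 to 1000 bp, 44.5% (713 of 1601) were spanned whole by a round spermatid island, and of round spermatid gaps of that size 33.5% (534 of 1596) were spanned by a spermatocyte island. For gaps of 4200 to 8000 bp these shares were 1.35% and 0.436%.

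The loci split into the most islands were wide domains. At chr9:67541001-67607600 (mm9) a single spermatocyte island of 66600 bp had 6001 ChIP and 841 input reads, a fold of 8.87 (8.25 to 9.55). The 5 round spermatid islands in it covered 47400 bp with 2243 ChIP and 878 input reads, a fold of 3.62 (3.35 to 3.92). At chr7:77021801-77089400 the spermatocyte island of 67600 bp had 5213 ChIP and 874 input reads and a fold of 7.42, and 4 round spermatid islands over 32200 bp had 1370 and 593 reads and a fold of 3.28. Both domains were thus broken up and weaker over input in round spermatids. The domain with the most pieces, chr17:30699601-30767600, had 1 spermatocyte and 6 round spermatid islands but closer folds, 2.87 and 2.24.

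Merging with a higher fold was seen at chr8:34642401-34668000, where 4 spermatocyte islands had 768 ChIP and 367 input reads in all, a fold of 2.60 (2.29 to 2.96), and 1 round spermatid island had 1161 and 415 reads, a fold of 3.97 (3.54 to 4.45). There the H4K5ac fold was 4.37 in spermatocytes and 7.84 in round spermatids. At chr10:94970601-94986000, 4 spermatocyte islands also met 1 round spermatid island, but the H4K8ac fold was 4.78 in spermatocytes and 3.67 in round spermatids.

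In the 16597 one-to-one pairs the round spermatid island was slightly wider and usually less enriched. The ratio of widths, round spermatid over spermatocyte, had a median of 1.07 (1.06 to 1.08), and the middle 50% of pairs ran from 0.8 to 1.42. It was 1.04 with lists of the same length and 1 among the stronger 50% of islands by fold. The round spermatid island was the wider in 8972 pairs (54.1%) and the narrower in 6589 (39.7%). It was at least 2 times wider in 1476 pairs (8.89%) and at least 2 times narrower in 1098 (6.62%). The spermatocyte island lay inside the other in 6429 pairs, the round spermatid island in 4671, and 5140 were staggered.

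The median fold of the pairs was 4.77 in spermatocytes and 3.42 in round spermatids. The log2 difference, round spermatid minus spermatocyte, had a median of -0.45 (-0.46 to -0.43) and was below 0 in 11869 pairs (71.5%). The fold was at least 2 times lower in round spermatids in 3352 pairs (20.2%) and at least 2 times higher in 181 (1.09%). On the log2 scale, raw ChIP density differed by a median of -0.30 and raw input density by 0.32, both before the constants of the lists. Among the 10858 pairs with widths within 1.5 times of each other, the median difference was -0.49, with 21.0% at least 2 times lower and 1.06% at least 2 times higher. The median difference was -0.056 when folds were scaled by the pooled ratio of each list in place of the deposited constant. That scaling makes the pooled folds of the lists equal, so it takes out the list-wide difference by construction. The size of the general shift thus rests on the scaling chosen, and which scaling is right was not tested.

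In 357 pairs the island had identical edges in both stages, so that reads were counted over the same bases. These held 67422 ChIP reads in spermatocytes and 54118 in round spermatids, a ratio of 0.803, and 20615 and 25032 input reads, a ratio of 1.21. Their median log2 difference in fold was -0.61 (-0.70 to -0.52), and 274 of them (76.8%) were lower in round spermatids. Input reads were the more numerous in round spermatids in 308. Of the 3 such pairs with the most ChIP reads, the 1 with the highest folds was chr19:6054401-6069000, with 737 ChIP and 180 input reads in spermatocytes, a fold of 5.09 (4.32 to 6.03), and 650 and 264 reads in round spermatids, a fold of 3.49 (3.02 to 4.04).

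The folds of the pairs spanned a narrower range in round spermatids. The upper quartile was 2.17 times the lower in spermatocytes and 1.45 times in round spermatids. In ChIP reads per kb these ratios were 1.63 and 1.31, and in input reads per kb 1.46 and 1.28. Across the pairs, which share libraries and are not independent, the log2 folds of the stages had a Pearson correlation of 0.38 and the log2 widths one of 0.64.

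When pairs were cut into 5 equal parts by spermatocyte fold, the median spermatocyte fold ran from 2.27 to 8.27, while the round spermatid fold of the same parts ran only from 2.96 to 3.86. Spermatocyte ChIP density ran from 32.2 to 66.7 reads per kb, and round spermatid ChIP density lay between 39.1 and 41.7 in all 5 parts. The log2 difference went from 0.41 in the lowest part to -1.15 in the highest. Since the spermatocyte fold enters both the cut and the difference, part of that slope is built in. Cut by round spermatid fold instead, the difference was below 0 in all 5 parts, from -0.61 in the lowest to -0.30 in the highest.

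**Figure D3:**
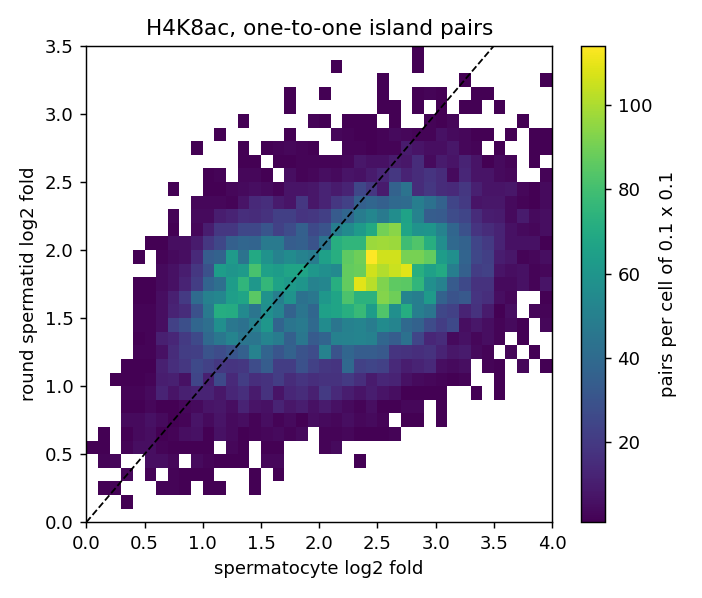
Log2 fold over input of one-to-one H4K8ac island pairs in spermatocytes (horizontal axis) and round spermatids (vertical axis), with colour for the number of pairs per cell of 0.1 by 0.1 and a dashed line where both are equal. The pairs are densest in 2 parts of the spermatocyte axis, with a shallow dip and no gap between them. Both parts lie at nearly the same height along the round spermatid axis.

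The pairs were divided at a spermatocyte log2 fold of 1.9, the middle of the dip, a boundary chosen after the values were seen. The 2 parts run into each other. Among shared spermatocyte islands with at least 100 ChIP reads no second peak was found. Below it lay 6002 pairs (36.2%), with median folds of 2.65 in spermatocytes and 3.08 in round spermatids, and above it 10595 (63.8%), with 5.99 and 3.62. The spermatocyte values and the stage difference follow in part from the boundary. The round spermatid ChIP densities, which did not enter it, were 39.8 and 40.3 reads per kb, almost the same. Pairs below the boundary were wider in round spermatids (3400 bp in spermatocytes, 4400 bp in round spermatids), and those above it were not (3600 and 3400 bp). The fold was lower in round spermatids in 29.96% of the pairs below and 95.1% of those above, and 178 of the 181 pairs that were at least 2 times higher there lay below.

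The other marks of spermatocytes followed the same division. The median H4K5ac fold in spermatocytes was 4.18 below the boundary and 10.1 above it, that of H4K8bu 3.27 and 7.08, and that of H4K5bu 2.69 and 5.95. In round spermatids they lay closer, at 5.72 and 6.37 for H4K5ac, 3.99 and 4.33 for H4K8bu, and 4.04 and 5.02 for H4K5bu. An H4K5bu island was called in spermatocytes at 87.4% of the pairs below and 99.5% of those above. Spermatocyte input density, shared by all these folds, was 16.7 reads per kb below and 11.8 above, and its part in the division was not tested. ChIP density, which holds no input, was 34.8 and 56.9 reads per kb for H4K8ac.

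Among pairs with at least 100 ChIP reads in both stages and widths within 1.5 times of each other, 7485 in all, 1309 were at least 2 times lower in round spermatids and 54 at least 2 times higher. The pair furthest lower in round spermatids by fold was chr1:9687801-9690200, with 104 ChIP and 5 input reads in spermatocytes, a fold of 25.9 (10.7 to 81.3), and 103 and 34 reads in round spermatids, a fold of 4.30 (2.89 to 6.53). The ChIP counts were thus almost equal and the input counts were not. At chr7:29938001-29942000 the counts were 146 and 11 in spermatocytes, a fold of 16.5, and 120 and 60 in round spermatids, a fold of 2.84. At chr6:47761401-47764800 they were 162 and 12, a fold of 16.8, and 135 and 58, a fold of 3.30. All 3 were loci with very few spermatocyte input reads.

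The pairs furthest higher in round spermatids differed more in ChIP reads than in input reads. Input reads were equal at the first pair below and fewer in round spermatids at the other pairs below. At chr16:76795201-76801000 there were 117 ChIP and 87 input reads in spermatocytes, a fold of 1.67 (1.26 to 2.23), and 277 and 87 reads in round spermatids, a fold of 4.51 (3.54 to 5.81). At chr14:67519601-67522800 the counts were 101 and 64, a fold of 1.96, and 174 and 47, a fold of 5.25. At chr4:46575001-46582200 they were 176 and 114, a fold of 1.92, and 308 and 88, a fold of 4.96. The intervals of the stages did not overlap at any of these. The pairs were picked by their fold ratio, so this follows from the choice. H4K5ac was also higher in round spermatids at all 3, with folds of 3.85 and 12.3, 3.77 and 7.11, and 2.90 and 7.82 in the order of the loci.

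One-stage H4K8ac islands were set against the called islands of the other 3 marks, where an island that was not called is not a measured absence of the mark. In their own stage, 75.8% of spermatocyte-only and 89.1% of round spermatid-only H4K8ac islands overlapped islands of all 3 other marks. In the other stage, 63.7% of spermatocyte-only islands (10198) overlapped none of them in round spermatids, and 43.4% of round spermatid-only islands (3748) overlapped none in spermatocytes. All 3 were present in the other stage at 13.1% and 13.7%. For shared islands, each single mark was present in the other stage at 95.4% or more.

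The order of the marks differed between the directions, and it was also the order of the lengths of their lists. Of spermatocyte-only islands, 28.5% met H4K5bu in round spermatids (27.8 to 29.2), 25.5% H4K5ac and 18.1% H4K8bu, whose lists there held 40185, 36549 and 33800 islands. Of round spermatid-only islands, 46.8% met H4K5ac in spermatocytes (45.7 to 47.8), 44.0% H4K8bu and 17.5% H4K5bu (16.7 to 18.3), whose lists there held 43505, 40695 and 37578 islands. H4K5ac and H4K8bu without H4K5bu were present at 1874 round spermatid-only islands (21.7%), more than had all 3 (1188). With all 8 lists cut to the same length by fold, spermatocyte-only islands met H4K5bu in 20.3%, H4K5ac in 19.0% and H4K8bu in 14.1%. H4K5bu was the least frequent in spermatocytes at round spermatid-only islands also with lists of the same length, but by a smaller margin (8.94%, against 12.2% for H4K5ac and 13.6% for H4K8bu), and among the stronger 50% of islands by fold (14.2%, 24.4% and 19.5%). At round spermatid-only islands H4K5ac was ahead of H4K8bu in the full lists, but H4K8bu was ahead with lists of the same length. With at least 50 ChIP reads H4K8bu was also ahead (45.7% against 39.5% for H4K5ac). The share with any other mark in the other stage was 36.3% of spermatocyte-only and 56.6% of round spermatid-only islands. That order turned to 29.1% and 21.8% with lists of the same length and to 39.7% and 30.2% among the stronger 50%. These settings cut islands before the one-stage class was set. The class then holds islands whose H4K8ac partner was cut, and it is not the class of the full lists.

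**Figure D4:**
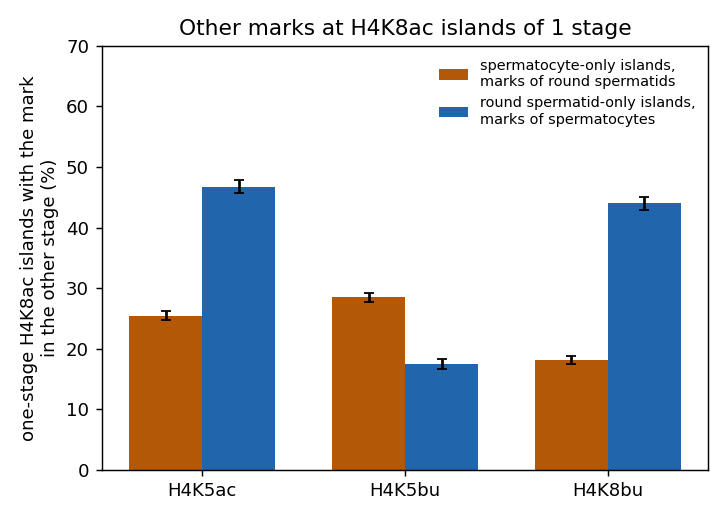
Percent of one-stage H4K8ac islands that overlap an island of H4K5ac, H4K5bu or H4K8bu in the other stage, for spermatocyte-only islands (marks of round spermatids) and round spermatid-only islands (marks of spermatocytes). Bars are shares of 1 list and error bars are exact 95% binomial intervals. For round spermatid-only islands H4K5bu, at 17.5%, is below H4K5ac and H4K8bu, while for spermatocyte-only islands it is the highest of the 3, at 28.5%.

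Where another mark was called in both stages at a one-stage H4K8ac island, its own fold was lower in the stage without H4K8ac. At spermatocyte-only islands the median H4K5ac fold was 7.20 in spermatocytes and 3.86 in round spermatids (3948 islands), that of H4K5bu 4.47 and 3.18, and that of H4K8bu 5.09 and 2.97. At round spermatid-only islands the H4K5ac fold was 4.54 in round spermatids and 3.19 in spermatocytes (4001 islands), that of H4K5bu 3.78 and 2.47, and that of H4K8bu 3.44 and 2.66. The marks of a stage share its input reads, and these islands were picked by an H4K8ac call over that input. Part of the difference is thus built in, and how much was not tested. The folds of one-to-one pairs with every mark in both stages were also lower in round spermatids, as at spermatocyte-only islands. Their median log2 differences were -0.38 for H4K5ac, -0.05 for H4K5bu and -0.46 for H4K8bu.

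The one-stage islands with the most ChIP reads, among those with a fold of at least 2, show both situations. The spermatocyte-only island chr14:45385401-45401400, 16000 bp wide, had 721 ChIP and 249 input reads, a fold of 3.601 (3.11 to 4.18). The other marks were called there in spermatocytes, with folds of 6.87 for H4K5ac, 4.22 for H4K5bu and 4.95 for H4K8bu, and none was called in round spermatids. The spermatocyte-only island chr4:51862601-51871400 had 454 and 111 reads, a fold of 5.09 (4.12 to 6.32), with an H4K5ac fold of 11.6, and again no mark was called in round spermatids. By contrast, at the spermatocyte-only island chr15:99930001-99940000 (537 and 162 reads, a fold of 4.12) all 3 other marks had islands in round spermatids, with folds from 1.82 to 3.44.

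The round spermatid-only island chr1:170278601-170287600 had 364 ChIP and 146 input reads, a fold of 3.54 (2.91 to 4.31). All 3 other marks were called there in both stages, H4K5ac with a fold of 7.88 in round spermatids and 2.76 in spermatocytes. At chr15:102926001-102936600, with 362 and 167 reads and a fold of 3.07, the H4K5ac fold was 7.17 in round spermatids and 3.21 in spermatocytes. Of the 5 round spermatid-only islands with the most ChIP reads by this rule, none lacked all other marks in spermatocytes. Of the 5 spermatocyte-only islands, 2 lacked them in round spermatids. Over all one-stage islands these shares were 43.4% and 63.7%, and 5 islands picked by ChIP reads are too few to compare the stages. Among those without any mark in spermatocytes and with a fold of at least 2, chr2:51290201-51297200 had the most ChIP reads. It had 204 ChIP and 120 input reads and a fold of 2.41 (1.91 to 3.05), below the median of 2.49 of round spermatid-only islands.

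Among 15173 one-to-one pairs where all 4 marks had islands in both stages, the median log2 difference in fold, round spermatid minus spermatocyte, was -0.48 for H4K8ac, -0.46 for H4K8bu, -0.38 for H4K5ac and -0.05 for H4K5bu. The fold was lower in round spermatids in 73.0, 70.2, 66.3 and 53.4% of these pairs in the same order. The 4 values share the 2 input libraries, and the differences between marks were not tested. The number of islands per mark, round spermatid over spermatocyte, was 0.778 for H4K8ac, 0.831 for H4K8bu, 0.840 for H4K5ac and 1.07 for H4K5bu.

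Along the chromosomes, every autosome had fewer H4K8ac islands in round spermatids. The ratio of numbers had a median of 0.771 and ran from 0.702 on chromosome 10 to 0.859 on chromosome 14. The shared percent of spermatocyte islands ran from 50.3 on chromosome 13 to 60.2 on chromosome 7, and that of round spermatid islands from 63.3 on chromosome 12 to 76.8 on chromosome 11. The median log2 difference in fold of the pairs was below 0 on each, from -0.54 on chromosome 19 to -0.31 on chromosome 16.

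In 2411 windows of 1 Mb, the numbers of islands of the stages had a Pearson correlation of 0.87 and a Spearman correlation of 0.86. The one-stage islands of the stages did not follow each other, with a Pearson correlation of -0.03. Windows with fewer round spermatid islands numbered 1605, and those with more numbered 587. The number of spermatocyte-only islands in a window thus told little of the number of round spermatid-only ones.

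Most round spermatid islands in windows where H4K8ac islands were sparse were found in that stage only. In windows with 1 to 4 spermatocyte islands there were 1012 spermatocyte and 1437 round spermatid islands, a ratio of 1.42, and 74.7% of the latter were round spermatid-only. In windows with 30 or more the ratio was 0.707 and that share was 13.7%. Binning by the islands of a stage sets how many there are to overlap. Binned by round spermatid islands, the round spermatid-only share was still highest in the sparsest windows, 61.7% against 18.2% in windows with 20 or more. The spermatocyte-only share went from 74.8% to 32.8% over these windows. A further 28 windows without a spermatocyte island held 79 round spermatid islands.

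**Figure D5:**
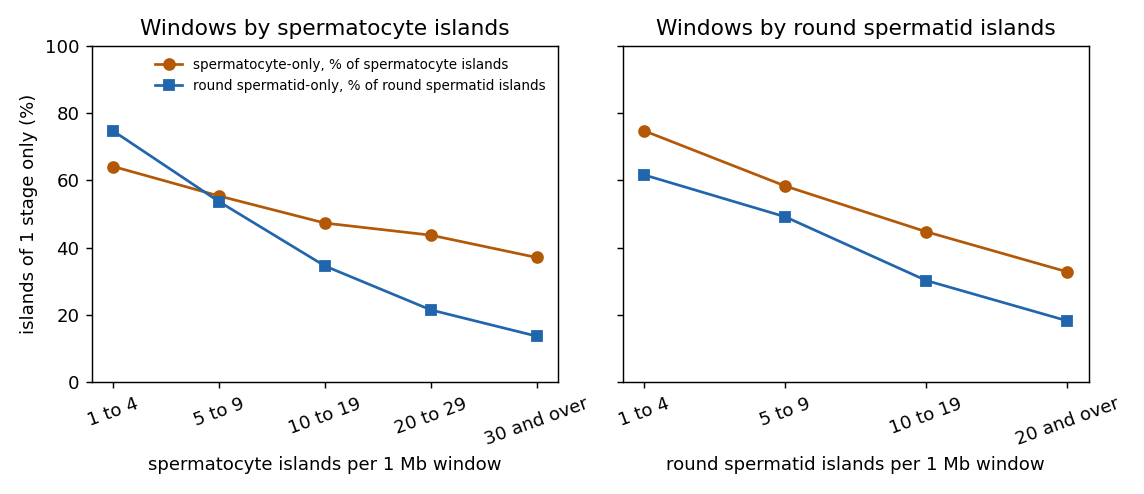
Percent of H4K8ac islands found in 1 stage only, in windows of 1 Mb grouped by their number of spermatocyte islands (left) or round spermatid islands (right). Circles are spermatocyte-only islands as a percent of spermatocyte islands and squares round spermatid-only islands as a percent of round spermatid islands. Both shares are lower in denser windows, and the round spermatid-only share runs from 74.7% to 13.7% in the left panel.

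A one-stage island had a one-stage neighbour of its own list more often than a shared island did. A spermatocyte-only island was next to another on at least 1 side in 76.4% of cases (75.8 to 77.1), and a shared spermatocyte island had a spermatocyte-only neighbour in 60.9%. For round spermatids these shares were 65.1% (64.0 to 66.1) and 43.0%. With lists of the same length, 76.5% of spermatocyte-only and 77.6% of round spermatid-only islands had such a neighbour. Taking the nearer neighbour alone, the spermatocyte shares were 54.1% and 35.7% and the round spermatid shares 42.9% and 24.98%. One-stage islands were also more isolated, with a median distance to the nearest island of the same list of 16600 bp for spermatocyte-only and 10800 bp for shared spermatocyte islands, and of 26000 and 14000 bp for those of round spermatids.

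Runs of successive one-stage islands in the merged order of both lists reached 13 in spermatocytes and 12 in round spermatids. Shared loci had runs of up to 16. Runs of 5 or more held 14.8% of spermatocyte-only islands, 5.52% of round spermatid-only islands and 20.9% of shared loci. These classes made up 37.4, 20.2 and 42.5% of the merged order, and a more frequent class has longer runs by that alone. The spermatocyte run at chr3:86026801-86765800 had 13 islands over 739 kb with a median fold of 3.49, and 10 of the 13 met no other mark in round spermatids. The run at chr8:110672001-111137800 had 13 islands over 465.8 kb, 12 of them without another mark in round spermatids. The longest round spermatid run, 12 islands over 2362.2 kb at chr5:94071201-96433400, was far more spread out, with folds from 1.46 to 3.08, and 4 of the 12 met no other mark in spermatocytes.

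Some of the extreme islands lay where input reads were very dense. The window with the most spermatocyte-only islands, chr13:66000001-67000000, held 65 spermatocyte and 24 round spermatid islands, and its 43 spermatocyte-only islands had a median fold of 1.87 and 27.2 input reads per kb. The widest round spermatid island, chr8:19915001-20038000, was 123000 bp wide and round spermatid-only, with 12613 ChIP and 15471 input reads, a fold of 1.16. The widest spermatocyte island, chr11:3022201-3104600, had 20877 and 23220 reads, a fold of 1.12, and the round spermatid island there a fold of 1.24. The next widest spermatocyte island, chr12:99619201-99692000, was unlike these, with 5805 and 980 reads and a fold of 7.37 (6.88 to 7.89).

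The densest 1% of islands by input reads per kb were 330 in spermatocytes and 276 in round spermatids, with median folds of 1.60 and 1.501. They held 6.61% and 9.07% of the input reads but 2.28% and 3.98% of the ChIP reads of their lists. Without them 54.6% of spermatocyte and 68.5% of round spermatid islands were shared, and the median log2 difference of the pairs was -0.46.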

How the data were processed

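The tools named were CASAVA 1.8.2, Bowtie2 2.2.5, deepTools 1.5.11 and SICER, with the build mm9, per the submitters' processing notes, while the sources used here do not give settings or SICER's version. The authors deposited 1 island list per immunoprecipitated library, without a header. Each deposited row gave coordinates, counts of ChIP and of input reads, a p-value, a fold (ratio) and a q-value. The deposited fold equalled the ratio of the counts times 1.24 in spermatocytes and 1.42 in round spermatids, except for islands with 0 input reads. Every deposited q-value was below 0.01, edges fell on multiples of 200 bp, and the smallest gap within a list was 800 bp. Positions are given in mm9, counted from 1.

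Islands sharing at least 1 bp were joined into loci, with folds of summed counts (Python 3.11.15, numpy 2.4.6, pandas 2.3.3, scipy 1.17.1). Shares have exact (Clopper-Pearson) intervals, folds exact conditional binomial ones, and medians order-statistic ones. The counts carry no molecular identifiers, so reads may repeat molecules and intervals are too narrow. The code was tested on simulated data. Named loci followed rules: per stage or direction, one-stage islands with the most ChIP reads and fold at least 2 (also those that no other mark covered in the other stage), the most split or merged loci, the widest islands, the pairs with the largest fold ratio (at least 100 ChIP reads in both stages, widths within 1.5 times), identical-edge pairs with the most ChIP reads, and the windows and runs with the most one-stage islands. The text gives those it needs. The islands and rules were chosen with earlier results of these data known. No genome of the build was used, so genes and sequences are not given. Alternatives were stricter overlap, other list lengths, q-value and read minimums, joining of near islands and other scalings.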

Additional observations from a re-analysis of the deposited data

How the results depend on the processing

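With 1 library per stage nothing here separates stage from library. No paired analysis was possible because each group had 1 library. An island missing from a list is uncalled, not a measured absence, and list length, depth and input density enter every overlap. No single value changed sign, but several orders turned. Merged against split loci and the share of one-stage islands with another mark turned with lists of the same length and among the stronger 50%. For merged against split loci the intervals overlapped after the turn, so these were about equal. The share with a one-stage neighbour turned with lists of the same length, also with overlapping intervals. H4K5ac against H4K8bu in spermatocytes at round spermatid-only islands turned with lists of the same length and with at least 50 ChIP reads. The share of spermatocyte islands found in both stages was below 50% when both lists were cut to their stronger 50%. Cutting a list also changes which islands of the other list count as shared or one-stage. The cause of the moves below was not tested unless given. The overlap of spermatocyte and round spermatid islands was 51.0% and 62.2% with at least 50% of the island covered, 55.4% and 69.6% with edges within 1000 bp, 46.6% and 60.1% among the stronger 50% of islands by fold, and 54.1% and 69.3% with islands less than 2000 bp apart joined. It was 55.1% for round spermatids with lists of the same length, 69.5% for round spermatids at a q-value below 1e-06, and 55.6% for spermatocytes with at least 50 ChIP reads.

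The median width ratio of pairs was 1 among the stronger 50%, 1.04 with lists of the same length and 1.08 over all shared loci. The median log2 difference in fold was -0.64, -0.62 and -0.43 in the same order, -0.43 with islands joined and -0.056 when scaled by the pooled ratio. Scaling by the pooled ratio takes out the list-wide difference by construction. Merged and split loci were 2.24% and 2.51% among the stronger 50%, 3.22% and 3.42% with lists of the same length, which shortens the spermatocyte list alone, and 3.03% and 1.16% with islands joined.

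One-stage neighbours of spermatocyte-only and round spermatid-only islands were 81.9% and 72.2% among the stronger 50%, 75.5% and 63.99% with at least 50 ChIP reads, and 54.1% and 42.9% for the nearer neighbour. With lists of the same length they were 76.5% and 77.6%, and for round spermatid-only islands 63.8% at a q-value below 1e-06. The median ratio of island numbers per autosome was 0.997 with lists of the same length, where equal totals are built in, and 0.756 at a q-value below 1e-06. The share of spermatocyte-only and round spermatid-only islands with another mark in the other stage was 39.7% and 30.2% among the stronger 50% and 29.1% and 21.8% with lists of the same length. For round spermatid-only islands it was 58.7% at a q-value below 1e-06 and 54.4% with at least 50 ChIP reads. The alternatives for single marks were chosen after seeing the data.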
